A study of Mus musculus with 9 samples.

Results

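The complement genes examined were C1s1, C1ra, C3, C4b and Serping1, a list of complement proteins that fibroblasts make. A gene entered through any probe set, a group of array probes read as 1 value, that the platform annotation assigns to exactly 1 symbol. This gave 3 of the 5 listed genes with 1 probe set each, C1s1 (1424041_s_at), C1ra (1417009_at) and Serping1 (1416625_at), of 12393 genes with such a probe set in all. C3 and C4b have no probe set of 1 symbol in the annotation used here and were not analysed. The annotation assigns 2 further probe sets to several symbols, of which 1 includes C1ra and 1 includes C4b, and neither was used. The list was chosen by differences in level between these lines on these same arrays, so those differences are a description. Calls from a fit across all probe sets are given beside them, and nothing is read from those calls.

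The 9 Affymetrix arrays hold 3 mouse cell lines with 3 arrays each, all grown with calf serum. NIH 3T3 is an established embryonic fibroblast line, labelled wild type. SV5 is a stable clone of NIH 3T3 that carries SV40 large T antigen, a viral oncoprotein that binds p53 and the retinoblastoma family. SV5-NN4 is a stable clone that carries both SV40 large T antigen and added wild-type Nras (labelled wt Nras). Each transformed line is 1 clone, so an effect of T antigen or of Nras cannot be told apart from a difference between clones. The sources used here do not say which promoter drives each transgene.

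Complement is a cascade of plasma proteases that marks surfaces for removal. The classical pathway starts when C1q binds a target and the paired protease C1r activates itself and then cleaves the protease C1s, which in turn cleaves C4 and C2 and leads to cleavage of C3. C1ra and C1s1 encode the mouse C1r and C1s, and Serping1 encodes C1 inhibitor, the serpin that inactivates both. The liver makes most plasma complement, while fibroblasts and macrophages secrete several components locally.

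C1ra and C1s1 lie next to each other on mouse chromosome 6 in RefSeq's gene order, on opposite strands and transcribed towards each other. Their promoters are shown because the mean levels of both genes took the same order over the lines. RefSeq promoter sequences (GRCm38.p6) were found for these 2 of the 3 measured genes, and the 250 bases before the annotated start are printed, 5′ to 3′. The first stretch is chr6:124512371-124512620 on the + strand and the second chr6:124542360-124542609 on the - strand. Capitals mark the single match to any motif searched.
C1ra: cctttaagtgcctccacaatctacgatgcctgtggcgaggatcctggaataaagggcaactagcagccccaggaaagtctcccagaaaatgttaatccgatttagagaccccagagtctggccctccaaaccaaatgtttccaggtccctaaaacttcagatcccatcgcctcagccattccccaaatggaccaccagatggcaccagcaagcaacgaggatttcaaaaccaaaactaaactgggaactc
C1s1: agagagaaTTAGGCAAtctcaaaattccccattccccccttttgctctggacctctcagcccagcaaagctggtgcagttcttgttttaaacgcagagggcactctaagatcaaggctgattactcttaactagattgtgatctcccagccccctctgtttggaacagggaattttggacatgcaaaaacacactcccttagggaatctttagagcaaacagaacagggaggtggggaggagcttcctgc
Both strands were searched for 8 motifs. These were the TATA box as TATAAA, the CCAAT box by that name, the AP-1 motif TGANTCA, the C/EBP motif TTNNGCAA, the STAT-bound GAS element as TTCNNNGAA and the E2F motif as TTTNNCGC. The ISRE core of interferon-responsive genes was searched as GAAA, any 2 bases and GAAA again, and the NF-kB motif as GGG, any 3 bases and TTCC. The match was TTAGGCAA, to the C/EBP motif, at bases -242 to -235 before the C1s1 start. Of 32851 promoter stretches of the same length, 9.56% hold that motif. The CCAAT motif is in 33.8%, the TATA motif in 12.4%, GAS in 7.02%, AP-1 in 6.75%, NF-kB in 4.65%, E2F in 4.28% and ISRE in 2.98%, and these letters are in neither stretch. C1s1 has 2 annotated starts, and the stretch before the second lacks the C/EBP match. The stretches held 49.6% G and C for C1ra and 48% for C1s1, beside a median of 52.4% over all promoters.

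Array medians ran from 56.2 to 62.4 intensity units. The 9 probe sets for the bacterial controls Dap, Lys and Trpn lay between 3.18 and 4.25 on the log2(intensity + 1) scale, which is the scale of all log2 values here. Over all probe sets, 61.1% of the variance lay between replicate numbers and 21.8% between lines. Arrays of equal number were compared as pairs, as the rule for these genes set out. Nras, the gene added in SV5-NN4, differed from SV5 by 0.06 (SE 0.14) at its brightest probe set and by 0.05 and 0.27 at the others, with adjusted p of 0.964, 0.978 and 0.546 in limma. SV5, with no added Nras in its label, differed from NIH 3T3 by 0.72, 0.97 and -0.03 at these probe sets (adjusted p of 0.125, 0.121 and 0.947), and SV5-NN4 differed from NIH 3T3 by 0.78, 1.02 and 0.24 (adjusted p of 0.0516, 0.0456 and 0.464). Nothing says whether these probes cover the added transcript, so they do not check the label of SV5-NN4. Of 13 measured fibroblast markers, 11 lay at or above 5.93, the level of the median probe set, and their median was 11.3. Markers of macrophages, hepatocytes, endothelium and epithelium, among them other makers of complement, had median levels of 5.01, 5.4, 4.52 and 4.93. None of these 4 lists had a called gene in any comparison of lines in limma, where 0.0617% to 1.65% of all probe sets were called. Between SV5-NN4 and SV5 the unadjusted p in limma was under 0.05 for 0 of their genes, beside 13% of all probe sets. For SV5 against NIH 3T3 it was so for 1 hepatocyte gene, beside 14.2% of all probe sets. For SV5-NN4 against NIH 3T3 it was so for 1 macrophage gene and 2 hepatocyte genes, beside 17.1%.

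C1s1, the protease that cleaves C4 and C2, was highest in SV5 and lowest in SV5-NN4 under every replicate number. In NIH 3T3 the intensity was 81.9, 135 and 832 on replicates 1, 2 and 3. In SV5 it was 345, 519.7 and 1564. In SV5-NN4 it was 36.9, 73.8 and 230.2. All SV5 arrays read above all SV5-NN4 arrays, as for 3.72% of all probe sets, whereas NIH 3T3 overlapped with both, because replicate 3 of each line was far above replicates 1 and 2. The log2 level averaged 7.72 ± 1.75 for NIH 3T3, 9.36 ± 1.13 for SV5 and 6.44 ± 1.32 for SV5-NN4 (SD, n = 3 arrays each). The probe set's name ends in s_at, the array maker's mark for probes that can match more than 1 transcript. The near-identical gene C1s2 has no probe set of its own in the annotation, so its share in the signal is uncertain.

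C1ra, whose product activates C1s, followed the same order in replicates 1 and 3. Across replicates 1 to 3, NIH 3T3 had intensities of 105, 80.8 and 1088. SV5 had 169, 470.1 and 1479.6, and SV5-NN4 had 73.9, 90.02 and 319. SV5 was highest under every number, and SV5-NN4 was lowest under replicates 1 and 3 and just above NIH 3T3 under replicate 2. The 3 lines overlapped in range. The log2 level averaged 7.73 ± 2.06 for NIH 3T3, 8.94 ± 1.56 for SV5 and 7.02 ± 1.14 for SV5-NN4 (SD, n = 3 arrays each). C1rb is a close copy of C1ra with no probe set of 1 symbol, so the signal of C1ra may include it.

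Serping1, the inhibitor of both proteases, was dim on all arrays. NIH 3T3 had intensities of 24.4, 54.5 and 23.6, SV5 of 24.5, 29.9 and 23.1, and SV5-NN4 of 26.7, 39.7 and 18.7. Replicate 2 was the highest array of each line, and the lines overlapped. Log2 means were 5.03 ± 0.67 (SD, n = 3), 4.74 ± 0.19 and 4.81 ± 0.52, and the lowest array, at 4.30, lay just above the bacterial controls. This left little room to see a lower level.

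**Figure D1:**
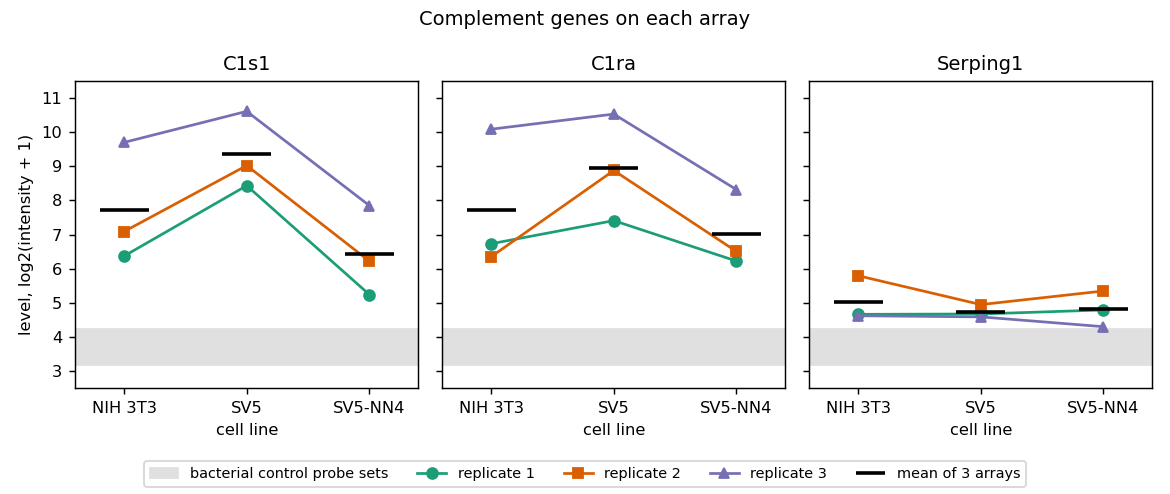
Level of C1s1, C1ra and Serping1 on each of the 9 arrays as log2(intensity + 1), by cell line, with lines joining arrays of equal replicate number, black bars for the mean of 3 arrays and a grey band for the bacterial control probe sets (3.18 to 4.25). C1s1 and C1ra peak in SV5 under each number and stand highest on the replicate 3 arrays, while Serping1 stays between 4.30 and 5.80.

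Both C1 proteases had higher levels in SV5 than in NIH 3T3 in each of the 3 pairs, and the inhibitor did not. C1s1 was 3.11-fold higher in SV5, a log2 difference of 1.64 (SE 0.23, 95% interval 1.08 to 2.19), with pairs of 2.06, 1.93 and 0.91. Of all probe sets, 12.9% were higher in SV5 in 3 of 3 pairs, as were C1s1 and C1ra. C1ra was 2.32-fold higher, a difference of 1.22 (SE 0.42, interval 0.23 to 2.20). Its pairs spread more widely, at 0.68, 2.53 and 0.44, so that 1 pair carried most of the difference, which was 0.67 without NIH 3T3 replicate 2. Serping1 differed by -0.29 (SE 0.20, interval -0.75 to 0.17), with pairs of 0.01, -0.85 and -0.03. Among all 22690 probe sets, 0.0837% had a larger difference than C1s1 and 0.419% a larger one than C1ra. The median of the 3 genes was 1.22, beside -0.04 over all probe sets. Of the 3 genes, 0 were called at an adjusted p under 0.05 in limma, where 0.0617% of all probe sets were called. The 3' to 5' log2 ratio of Actb probe sets, which rises as RNA degrades, was 3.73, 4.32 and 2.42 in SV5 and 4.25, 4.43 and 5.06 in NIH 3T3, lower in SV5 in each pair. For Gapdh it was 2.45, 3.03 and 2.36 against 2.65, 2.99 and 5.21. Its part in the differences of C1s1 and C1ra was not tested.

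Both proteases had lower levels in SV5-NN4 than in SV5 in each of the 3 pairs. C1s1 was 7.55-fold lower in SV5-NN4, a log2 difference of -2.92 (SE 0.23, 95% interval -3.47 to -2.37). Its pairs of -3.19, -2.80 and -2.76 had an SD of 0.24, the smallest of its 3 comparisons. C1ra was 3.79-fold lower, with a difference of -1.92 (SE 0.42, interval -2.91 to -0.94) and pairs of -1.18, -2.37 and -2.21. Serping1 differed by 0.08 (SE 0.20, interval -0.38 to 0.54), with pairs of 0.12, 0.40 and -0.29. Of all probe sets, 0.110% had a lower difference than C1s1 and 0.287% a lower one than C1ra. The median of the 3 genes was -1.92, beside 0.01 over all probe sets, and 19.6% of all probe sets were lower in 3 of 3 pairs. Of the 3 genes, 1, C1s1, was among the called probe sets of lower level, where 0.555% of all probe sets were called lower. This count was 0 without the replicate block, where 0.0837% of all probe sets were called. It was also 0 without SV5 replicate 2, SV5-NN4 replicate 2 or SV5-NN4 replicate 3, where 24, 14 and 17 of all 22690 probe sets were called. The C1s1 differences were -3.14 to -2.74 over all single arrays left out. With only the 2 lines compared, C1ra was called lower as well as C1s1, where 1504 of all 22690 probe sets were called.

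Other measures moved between SV5 and SV5-NN4 in the same pairs. The summed log2 level of the 13 fibroblast markers was 136.0 to 138.6 in SV5 and 126.7 to 130.3 in SV5-NN4. Their median difference was -0.58, with 11 of 13 below 0. Of the 13, 3 were called lower, where 0.555% of all probe sets were called lower. These were Pdgfra, a receptor for platelet-derived growth factor, with a log2 difference of -2.10 (adjusted p = 0.0032 in limma), the surface glycoprotein gene Thy1 with -1.39 (adjusted p = 0.0056), and the fibrillar collagen gene Col3a1 with -1.05 (adjusted p = 0.0336). The 3' to 5' log2 ratio of Actb was 4.07, 4.63 and 3.66 in SV5-NN4 against 3.73, 4.32 and 2.42 in SV5. For Gapdh it was 2.66, 3.52 and 3.05 against 2.45, 3.03 and 2.36, again higher in SV5-NN4 in each pair. The part of these shifts in the C1s1 and C1ra differences was not tested.

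Against the parent line NIH 3T3, SV5-NN4 had a lower C1s1 level in each pair, while the pairs of C1ra differed in sign. C1s1 was 2.43-fold lower, a log2 difference of -1.28 (SE 0.23, 95% interval -1.83 to -0.73), with pairs of -1.13, -0.87 and -1.85. Of all probe sets, 19% were lower in 3 of 3 of these pairs. C1ra differed by -0.71 (SE 0.42, interval -1.69 to 0.28), with pairs of -0.51, 0.15 and -1.77. Serping1 differed by -0.21 (SE 0.20, interval -0.67 to 0.25). The median of the 3 genes was -0.71, beside -0.03 over all probe sets. Of the 3 genes, 0 were called, where 1.65% of all probe sets were called in limma. C1s1 was among the called in only 3 of 8 other settings, namely quantile normalization, the brighter probe sets and probe sets averaged per gene. These settings called 325 probe sets, 446 probe sets and 312 genes in all, beside 375 probe sets in the main fit. With single arrays left out C1s1 was called in 1 of 9 fits. That was the fit without NIH 3T3 replicate 1, where 1239 of all 22690 probe sets were called. Fibroblast markers were lower in this comparison too, with summed log2 levels of 126.7 to 130.3 in SV5-NN4 and 132.7 to 141.8 in NIH 3T3, a median difference of -0.47, 11 of 13 below 0 and 2 called lower (Pdgfra and Thy1). The 3' to 5' log2 ratio of Actb was 4.07, 4.63 and 3.66 in SV5-NN4 against 4.25, 4.43 and 5.06 in NIH 3T3. For Gapdh it was 2.66, 3.52 and 3.05 against 2.65, 2.99 and 5.21. The pairs differed in sign for both, with the largest gap in pair 3. The part of the markers and of these ratios in the C1s1 difference was not tested. The comparisons share arrays, so they are not independent of each other.

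**Figure D2:**
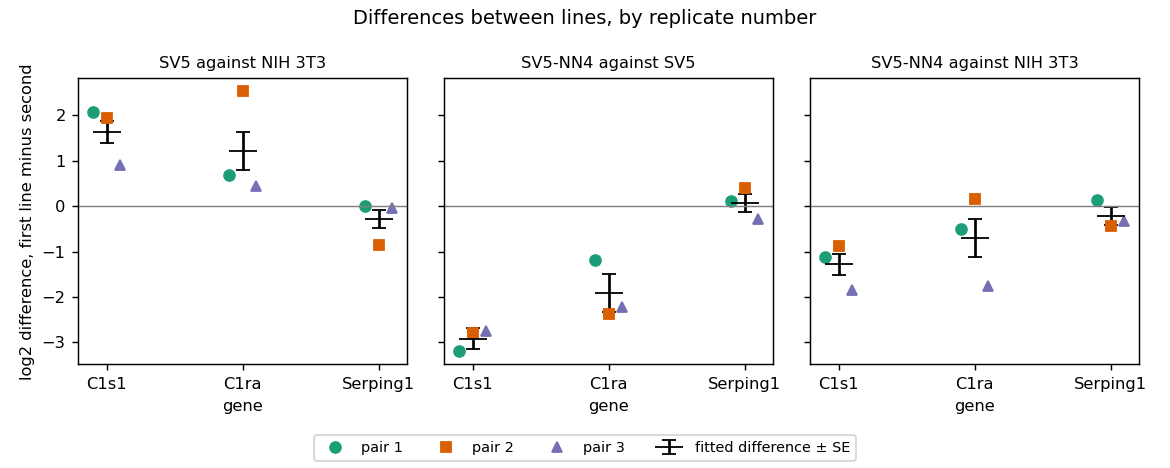
Log2 difference of C1s1, C1ra and Serping1 in each comparison of lines (first line minus second), with 1 symbol per pair of equal replicate number and a black bar for the fitted difference with its SE. C1s1 pairs lie from 0.91 to 2.06 in SV5 against NIH 3T3 and from -3.19 to -2.76 in SV5-NN4 against SV5.

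The log2 difference of C1s1 minus that of C1ra was set out pair by pair. In SV5-NN4 against SV5 it was -2.01, -0.43 and -0.55, a mean of -0.99 ± 0.88 (SD, n = 3 pairs), carried mostly by pair 1. In SV5 against NIH 3T3 the gap was 1.39, -0.59 and 0.47, a mean of 0.42 ± 0.99, and its sign varied. Whether the proteases differed by unequal amounts was not tested.

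C1s1 and C1ra also differed strongly between replicate numbers. The replicate 3 arrays exceeded the mean of replicates 1 and 2 by 2.32 (SE 0.20) for C1s1 and by 2.63 (SE 0.36) for C1ra on the log2 scale, 5.01- and 6.18-fold, in all 3 lines. Serping1 was lower by 0.53 (log2 difference -0.53, SE 0.17) on the replicate 3 arrays, also in all 3 lines. Replicate number held 46.7% of the variance of C1s1 and line 51.4%, whereas for C1ra the shares were 65.5% and 26.3%, and for Serping1 73.8% and 8.23%. Such shifts were common on these arrays, with 43.4% of all probe sets called in that contrast by limma, though only 0.300% rose by more than C1s1 and 0.128% by more than C1ra. The labels do not say what the replicate numbers stand for.

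Other genes of the complement system and around it were read from 112 measured genes of 129 on 9 lists that hold none of the 3 genes. Some of these lists hold complement components, regulators and receptors. The others hold contact factors and serpins, transcription factors, cytokine receptors and signalling genes, and acute phase and pattern recognition genes. Between SV5-NN4 and SV5, 3 of the 112 fell and 0 rose at an adjusted p under 0.05 in limma, where 0.864% of all probe sets were called. The other comparisons of lines called 0 of 112, with 13 at an unadjusted p under 0.05 for SV5 against NIH 3T3 and 20 for SV5-NN4 against NIH 3T3, beside 16 for SV5-NN4 against SV5. Over all probe sets 14.2%, 17.1% and 13% had such a p, close to the shares among the 112 genes. The median difference of the 112 genes was -0.06 between SV5-NN4 and SV5, beside 0.01 over all probe sets.

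The genes called lower were Cebpd, Plat and Colec12, of which only Colec12 is on a list of complement components, regulators or receptors. Cebpd encodes C/EBP delta, a transcription factor of the acute phase response that binds C/EBP motifs. NIH 3T3 had intensities of 733, 798 and 1036, SV5 of 669.8, 1174 and 1539.6, and SV5-NN4 of 227, 475 and 621, so that SV5-NN4 lay below SV5 and NIH 3T3 on every array. Of all probe sets, 3.72% were lower in SV5-NN4 than in SV5 with no overlap, and 19.6% were lower in 3 of 3 pairs. Cebpd fell by 1.39 from SV5 to SV5-NN4 (SE 0.20, adjusted p = 0.0357 in limma, lower in 3 of 3 pairs), and its dimmer probe set gave -0.59 (adjusted p = 0.162). Between SV5 and NIH 3T3 it differed by 0.33 (adjusted p = 0.499).

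Plat encodes tissue plasminogen activator, a protease that C1 inhibitor can bind. It read 226, 129 and 206 in NIH 3T3, 268, 205 and 259 in SV5, and 145, 98.1 and 82.6 in SV5-NN4. Its SV5-NN4 arrays lay below those of SV5 with no overlap, as for 3.72% of all probe sets. It fell by 1.19 (SE 0.19, adjusted p = 0.0484 in limma, lower in 3 of 3 pairs, as for 19.6% of all probe sets). Colec12 encodes a scavenger receptor of the collectin family. It read 259, 307 and 446 in NIH 3T3, 307, 417 and 493.6 in SV5, and 173, 216 and 320.5 in SV5-NN4. It fell by 0.80 (SE 0.12, adjusted p = 0.0381 in limma, lower in 3 of 3 pairs), although the ranges of SV5 and SV5-NN4 overlapped. All 3 calls were lost without the replicate block (adjusted p of 0.732, 0.444 and 1 for Cebpd, Plat and Colec12). Leaving out NIH 3T3 replicate 2, or any 1 array of SV5 or SV5-NN4, also ended all 3 calls, the adjusted p then reaching 0.193, 0.216 and 0.229, while 5 of the 112 genes were called without NIH 3T3 replicate 1. A pseudocount of 16 gave 0.054 for Cebpd and 0.0669 for Plat, median centring 0.0557 for Plat, and an intensity trend 0.0506 for Plat and 0.0902 for Colec12 (adjusted p in limma).

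The complement lists were read separately for SV5-NN4 against SV5, where 0.864% of all probe sets were called. At that share, a count of 0 on a list of 8 to 12 measured genes says little. The classical and lectin components held 10 measured genes, of which 1, Colec12, was called lower in SV5-NN4 than in SV5 and 0 were called higher, with a median of 0.01. Masp1, a lectin pathway protease of the same family as C1r and C1s, differed by 0.43 (SE 0.16, adjusted p = 0.313 in limma). Its other probe sets gave 0.50, -0.11, 0.02 and 0.65 (adjusted p of 0.318, 0.889, 0.993 and 0.212). Of 8 alternative and terminal components 0 were called, with a median of 0.03. There Hc, which encodes C5, differed by 0.14 and Cfb, the alternative pathway protease factor B, by 0.16.

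Of 8 soluble regulators 0 were called, with a median of -0.10. Clu, the chaperone clusterin that binds terminal complexes, differed by -0.43 (adjusted p = 0.643 in limma), and Pros1, which encodes protein S, a partner of C4b-binding protein, by -0.74 (adjusted p = 0.111, lower in 3 of 3 pairs, as for 19.6% of all probe sets). Of 8 membrane regulators 0 were called, with a median of -0.18. Cr1l, the rodent regulator Crry, differed by -0.20 and Thbd, thrombomodulin, by -0.30. Of 12 receptors 0 were called, with a median of -0.00077. C1qbp, a mitochondrial protein that can bind C1q, differed by 0.50 (adjusted p = 0.200 in limma), and Calr, the chaperone calreticulin, by -0.05.

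The lists around complement gave the other calls, beside the same share of 0.864% over all probe sets. Of 15 contact factors and serpins, 1, Plat, was called lower in SV5-NN4 than in SV5, with a median of -0.01. Of 18 transcription factors known for complement genes, 1, Cebpd, was called lower, with a median of -0.14. Of 17 cytokine receptors and signalling genes 0 were called, with a median of -0.16. Of 16 acute phase and pattern recognition genes 0 were called, with a median of -0.13.

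**Figure D3:**
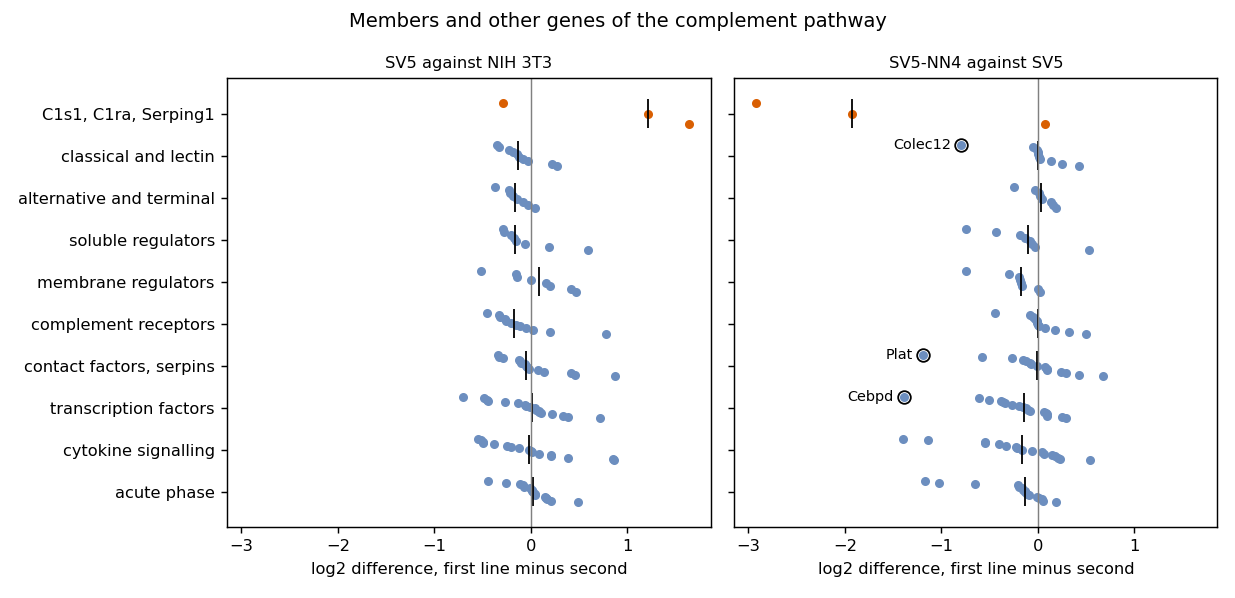
Log2 difference of each measured gene of the 9 lists (blue) and of C1s1, C1ra and Serping1 (orange) in SV5 against NIH 3T3 and SV5-NN4 against SV5, with a vertical bar at each list's median. Circles mark blue genes called by limma, and orange genes have no circle, whether called or not. Only Cebpd, Plat and Colec12 of the 112 blue genes are circled, at -1.39, -1.19 and -0.80.

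Genes with the most similar pattern were found among 7142 genes at or above the median level, as the smallest root mean square distance over the 9 arrays after the mean of each replicate number was removed. The 3 nearest to C1s1 were Col6a3, a collagen VI chain, at 0.156 log2 units, Adamts1, a matrix protease, at 0.174, and Pdk4, a kinase that restrains pyruvate dehydrogenase, at 0.403. The C1s1 values themselves had a root mean square size of 1.22. Col6a3 differed by 1.40 in SV5 against NIH 3T3 and by -2.77 in SV5-NN4 against SV5, and Adamts1 by 1.65 and -2.79, close to the 1.64 and -2.92 of C1s1. C1ra had rank 12, at 0.559.

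The 3 nearest to C1ra were Mab21l1 at 0.357, the small GTPase gene Rap2a at 0.371 and Fn1, which encodes fibronectin, at 0.374, beside a root mean square size of 0.910 for C1ra. Fn1 differed by 1.02 in SV5 against NIH 3T3 and by -1.32 in SV5-NN4 against SV5. C1s1 had rank 56 from C1ra. The 3 nearest to Serping1, namely Slc4a4, a bicarbonate transporter, Has1, a hyaluronan synthase, and Irf5, an interferon regulatory factor, lay at 0.076, 0.083 and 0.089, beside a size of 0.218 for Serping1, so they share small differences.

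**Figure D4:**
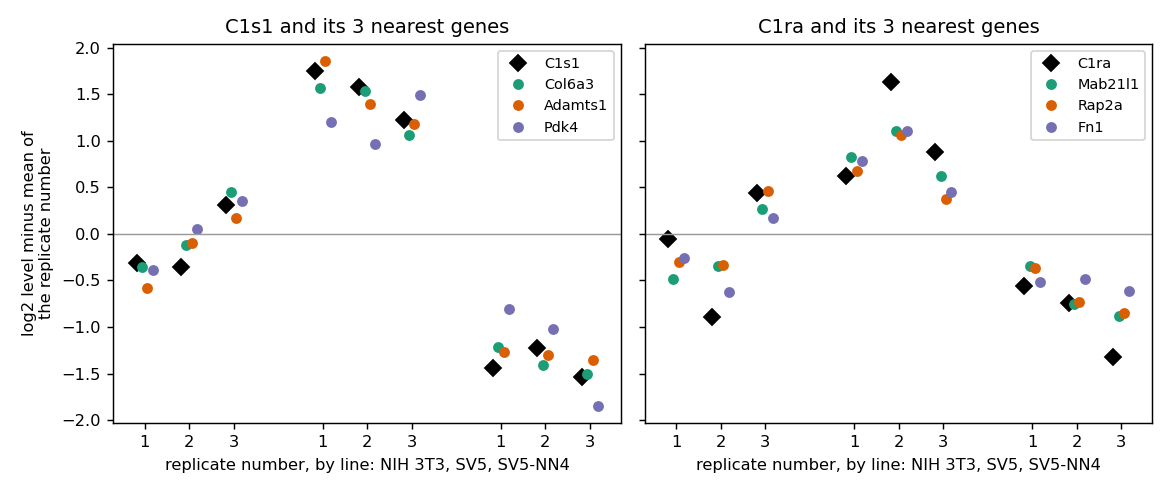
Log2 level minus the mean of the 3 arrays of the same replicate number, for C1s1 and C1ra (black diamonds) and the 3 genes nearest to each (circles), on the 9 arrays by line. Col6a3 and Adamts1 lie at a root mean square distance of 0.156 and 0.174 log2 units from C1s1, and all genes shown have their highest mean in SV5.

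The measured genes around C1ra and C1s1 on the chromosome had smaller differences. The genes nearest to the pair, C1rl, C1rb and C1s2, had no probe set of 1 symbol. Of the 5 protein-coding genes on each side, 6 of 10 were measured, namely Cd163, Pex5, Clstn3, Lpcat3, Emg1 and Phb2. Of these, 0 were called in any comparison of lines in limma, where 0.0617% to 1.65% of all probe sets were called. Cd163 lay at 3.27 to 3.61, within the range of the bacterial controls, so little could be seen of it. Their differences ran from -0.35 to 0.18 between SV5-NN4 and SV5 and from -0.41 to 0.27 between SV5 and NIH 3T3. Pex5, an import receptor of peroxisomes, had the lowest of the first at -0.35 (adjusted p = 0.447 in limma). Around Serping1 on chromosome 2, 7 of 10 neighbours were measured, 0 were called, and differences between SV5-NN4 and SV5 ran from -0.02 to 0.55.

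**Figure D5:**
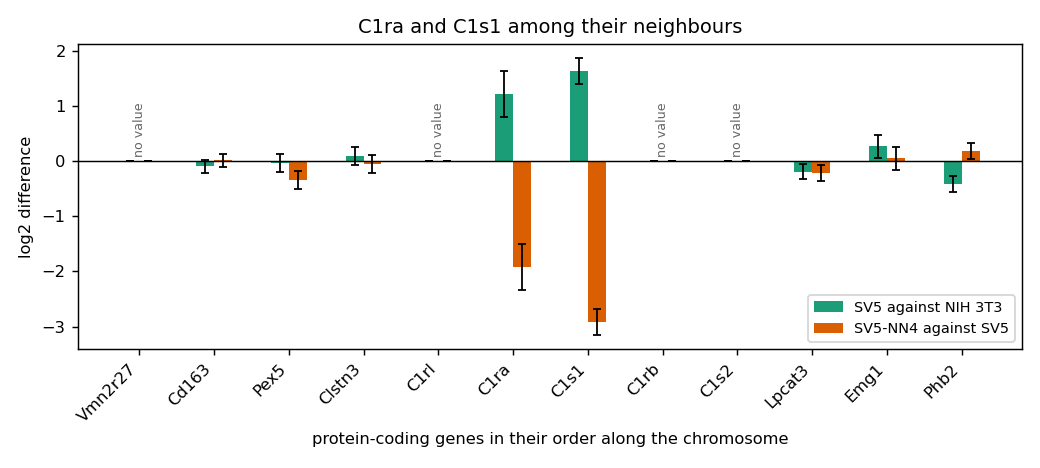
Log2 difference, with SE as error bars, of C1ra, C1s1 and the 5 protein-coding genes on each side in their order along the chromosome, for SV5 against NIH 3T3 (green) and SV5-NN4 against SV5 (orange); genes with no probe set of 1 symbol have no value. C1ra and C1s1 reach -1.92 and -2.92 in SV5-NN4 against SV5, while the measured neighbours stay between -0.35 and 0.18.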

How the data were processed

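Expression was measured on 9 Affymetrix arrays from cRNA made of total RNA by the one-cycle procedure, per the labels' protocols. The authors' deposited table holds 22690 intensities per array, linear in scale and made with RMA per the submitters' processing notes, with settings not stated there. They were used as log2(intensity + 1), so differences of dim probe sets are understated. Probe sets were named by the platform annotation (20380 probe sets with 1 symbol, array controls left out; 691 with several), and a gene was represented by its brightest probe set. Of these, 20351 were found by gene ID in RefSeq's GRCm38.p6 table, which served for names and gene order.

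Lines were compared with limma 3.58.1 in R 4.3.3 (lmFit with line and replicate number, all 9 arrays, eBayes, Benjamini-Hochberg adjustment over all probe sets, called at an adjusted p under 0.05). The fit was run on data simulated from the same model with independent noise, which cannot check the choice of the replicate block. After group means were removed, arrays of different lines with the same number (9 pairs) correlated over probe sets at r of 0.26 to 0.84, and the 18 other pairs at -0.73 to 0.11. Removing group means itself pushes the other pairs down where equal numbers correlate, so these ranges are not independent. The pairing was set by the rule for comparing these genes and is not stated by the labels. Nothing says that replicates are separate cultures. In the main fit, p-values and SEs measure the spread that remains between arrays after line and replicate number are fitted. The number of arrays limits the precision.

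The genes and lists were chosen with earlier results of these data known. Named were every probe set of the 3 genes, called list genes, the 2 brightest genes of each complement list, and the 3 genes nearest to each of the 3. The replicate 3 contrast, the neighbours and the named fibroblast markers were added after values were seen. Alternatives were no replicate block, 2 lines only, a pseudocount of 16, median centring, quantile normalization, the brighter probe sets, averaged probe sets per gene, an intensity trend and each array left out.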

Additional observations from a re-analysis of the deposited data

How the results depend on the processing

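The differences of C1s1, C1ra and Serping1 kept their sign in every comparison of lines under all settings run, except that of Serping1 between SV5-NN4 and SV5, which was -0.14 to 0.23 with single arrays left out. Their median stayed at 0.67 to 1.67 (SV5 against NIH 3T3), -2.24 to -1.48 (SV5-NN4 against SV5) and -1.25 to -0.25 (SV5-NN4 against NIH 3T3) with single arrays left out. Counts of calls depended on the fit. For SV5 against NIH 3T3 the 14 called probe sets became 1 with no replicate block, 0 with 2 lines only, a pseudocount of 16, median centring or quantile normalization, 1 with probe sets averaged per gene and 6 with an intensity trend, and 0 to 49 with single arrays left out. For SV5-NN4 against SV5 the 196 became 19 with no replicate block, 1504 with 2 lines only and 14 to 950 with single arrays left out, and the 3 called genes of the 112 became 0 with no replicate block, 5 with 2 lines only, 1 with a pseudocount of 16 or an intensity trend and 0 to 5 with single arrays left out. For SV5-NN4 against NIH 3T3 the 375 became 18 with no replicate block or 2 lines only and 13 to 1239 with single arrays left out, and the 0 of 112 became 2 with quantile normalization or the brighter probe sets, 1 with probe sets averaged per gene and 0 to 2 with single arrays left out. Each of the 9 arrays, left out alone, moved each count over all probe sets by more than 1.5 times, and the highest of these counts came without NIH 3T3 replicate 1. For the 112 genes in SV5-NN4 against NIH 3T3, the 2 came without NIH 3T3 replicate 1, and 1 was called without SV5 replicate 2 or 3. The cause of these shifts was not tested. The median of 3 genes has no value over the brighter probe sets, since Serping1 is not among them. The signal of Serping1, close to the bacterial controls, limits what could be seen of it.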
